A study of Mus musculus with 10 samples.

Results

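Sterols reach and leave the small intestinal epithelium through a short list of dedicated transporters. 8 genes of this system were followed here, of 54838 genes listed: the uptake genes Npc1l1 and Scarb1, the esterifying enzyme Soat2, the efflux genes Abcg5, Abcg8 and Abca1, and the transcriptional regulators Srebf2 and Nr1h3. They were chosen by name, as sterol transport genes and their regulators. The rule used no measured value, but earlier results of these data were known when the genes were chosen. All 8 were found in every library and all 8 passed the filter on low counts.

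Bulk polyA RNA-seq was performed on mouse jejunal crypts from 5 WT and 5 Arid3a cKO animals, after the villi had been scraped off, with 1 library per animal. The cKO animals were VillinCre-ERT2+/-; Arid3a fl/fl, in which a tamoxifen-inducible Cre under the Villin promoter deletes Arid3a, a DNA-binding transcription factor, in the gut epithelium and not in other cells. Both groups were given tamoxifen on 3 consecutive days and were collected at 1 month after the first injection. The comparison asked how the crypt transcriptome differed once Arid3a had been removed. The labels call the groups WT and KO and name no allele of the WT animals. Age was not given in the sources used here, and the animal names of the 2 groups share no stem, so that genotype cannot be told apart from colony or litter.

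NPC1L1 sits in the apical membrane of enterocytes and carries dietary and biliary cholesterol into the cell, and it is the target of the drug ezetimibe. ABCG5 and ABCG8 form an obligate heterodimer that pumps plant sterols and cholesterol back into the lumen, and loss of either causes sitosterolaemia. Cholesterol that stays in the cell is esterified by SOAT2 and packed into chylomicrons, or leaves across the basolateral membrane through ABCA1. The oxysterol-activated receptor LXRα, encoded by Nr1h3, induces the efflux genes, while SREBP2, encoded by Srebf2, induces cholesterol synthesis and uptake when sterols are scarce.

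Abcg5 and Abcg8 are transcribed away from each other, and the 109 bases that separate their RefSeq starts are shown because the pair shares this stretch as its promoter. The region is chr17:84683012-84683120 in GRCm38.p6, printed from the plus strand, which reads towards Abcg8. Capitals mark GATAAG on the opposite strand, the letters bound by GATA factors, whose first printed base lies 64 bases before the Abcg8 start.
Abcg5-Abcg8 intergenic: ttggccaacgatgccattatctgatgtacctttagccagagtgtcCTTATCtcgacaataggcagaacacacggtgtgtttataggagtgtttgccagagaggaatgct
The 250 bases before the RefSeq start of Npc1l1, chr11:6230246-6230495 on the minus strand, are shown because this gene moved with the pair from library to library. Capitals mark GTTAAT on the opposite strand, core letters of an HNF1 site, whose first printed base lies 40 bases before the start.
Npc1l1: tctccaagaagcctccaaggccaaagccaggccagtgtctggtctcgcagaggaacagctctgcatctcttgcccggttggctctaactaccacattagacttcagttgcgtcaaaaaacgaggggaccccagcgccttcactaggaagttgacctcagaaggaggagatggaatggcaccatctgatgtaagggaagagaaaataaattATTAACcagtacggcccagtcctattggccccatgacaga
The region before Srebf2, chr15:82147019-82147180 on the plus strand, is shown as the contrasting gene, up to the base before its first annotated exon. Capitals mark ATCACCCCA, a sterol response element through which SREBP proteins act, whose first base lies 163 bases before the RefSeq start.
Srebf2: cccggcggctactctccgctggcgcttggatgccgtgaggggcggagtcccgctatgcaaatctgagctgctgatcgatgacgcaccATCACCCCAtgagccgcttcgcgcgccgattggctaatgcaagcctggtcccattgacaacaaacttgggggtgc

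The sequences are from RefSeq, whose promoter table matched 6 of the 8 genes and lacked an entry for Scarb1 and Soat2. Both strands were searched for 6 sets of letters, which were picked with the sequences known: ATCACCCCA for SREBP, GATAAG for GATA factors, GTTAAT for HNF1, CAAAGTCCA for HNF4, the AT-rich ATTAAA for ARID3A and the LXR repeat known as DR4. The marked matches were the only ones in these 3 windows. Over 32851 promoter windows of the same length and place, GATAAG was found in 2.53%, GTTAAT in 6.43% and ATCACCCCA in 0.158%. A match describes the letters of a window and was not tested as a site.

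The libraries held 27050455 to 31053622 expected counts, the fractional read counts that RSEM assigns to genes. Before normalization, 1 CPM (a count scaled to a common library total) stood for 27 to 31 counts. The CPM given here use normalized library sizes, with factors from 0.934 (cKO replicate 5) to 1.08 (WT replicate 4). Arid3a itself was at 1.91, 2.07, 2.75, 2.68 and 2.69 CPM in WT replicates 1 to 5 and at 0.303, 0.516, 0.49, 0.884 and 1.17 CPM in cKO replicates 1 to 5. The groups did not overlap, with a log2 fold change of -1.84 ± 0.32 (SE) and an adjusted p of 0.00204 in edgeR's quasi-likelihood test. All p-values adjusted by edgeR were corrected over 14719 tested genes, of which 15.6% were called higher and 12.7% lower in cKO at 0.05, or 2298 and 1869 genes. This balance turned with the scaling: 1541 were higher and 4030 lower with library size only, 1411 and 2760 in limma on log2(TPM + 1), and 1399 and 2742 in limma on log2(TPM + 0.1).

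Enterocyte marker RNA differed between the genotypes. All 11 enterocyte markers rose in cKO, their median change being 1.55 on the log2 scale, and none was at 0 in any library. Their summed level ran from 2092.5 to 7709.1 CPM in WT and from 9148.5 to 15247.7 CPM in cKO, with WT replicates 4 and 3 lowest. Of the other epithelial lists, 3 of 6 stem and cycling markers and 3 of 4 Paneth markers fell, 3 of 6 enteroendocrine and 2 of 4 tuft markers rose, and no goblet marker of 6 passed the test, with 1 higher and 1 lower at an unadjusted p under 0.05 and 1 higher in DESeq2. Myeloid markers summed to 54.9 to 120 CPM in WT and 27.3 to 133 CPM in cKO, with 2 of 9 lower. Of the remaining lists, 1 of 5 lymphocyte and both tested endothelial markers were lower, no stromal marker of 6 was called or had an unadjusted p under 0.05, and the endothelial marker Cdh5 was at 0 in at least 1 library. In bulk crypts, more cells of a type and more RNA per cell cannot be told apart.

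Among the 8 sterol genes, 6 were called higher in cKO, beside 15.6% of all tested genes, and 2 were not called. The 6 were Npc1l1, Abcg8, Abcg5, Abca1, Soat2 and Nr1h3, and the 2 were Scarb1 and Srebf2. Log2 fold changes ran from -0.24 to 1.44, with a median of 1.10 against -0.03 over all tested genes. None was called lower by edgeR or DESeq2, although Srebf2 was lower at an unadjusted p under 0.05. DESeq2 also called 6 higher. In 3 of the 8, each cKO library lay above each WT library, which was so for 12.0% of tested genes. In none of the 8 did each cKO library lie below each WT library, against 7.63% of tested genes.

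**Figure D1:**
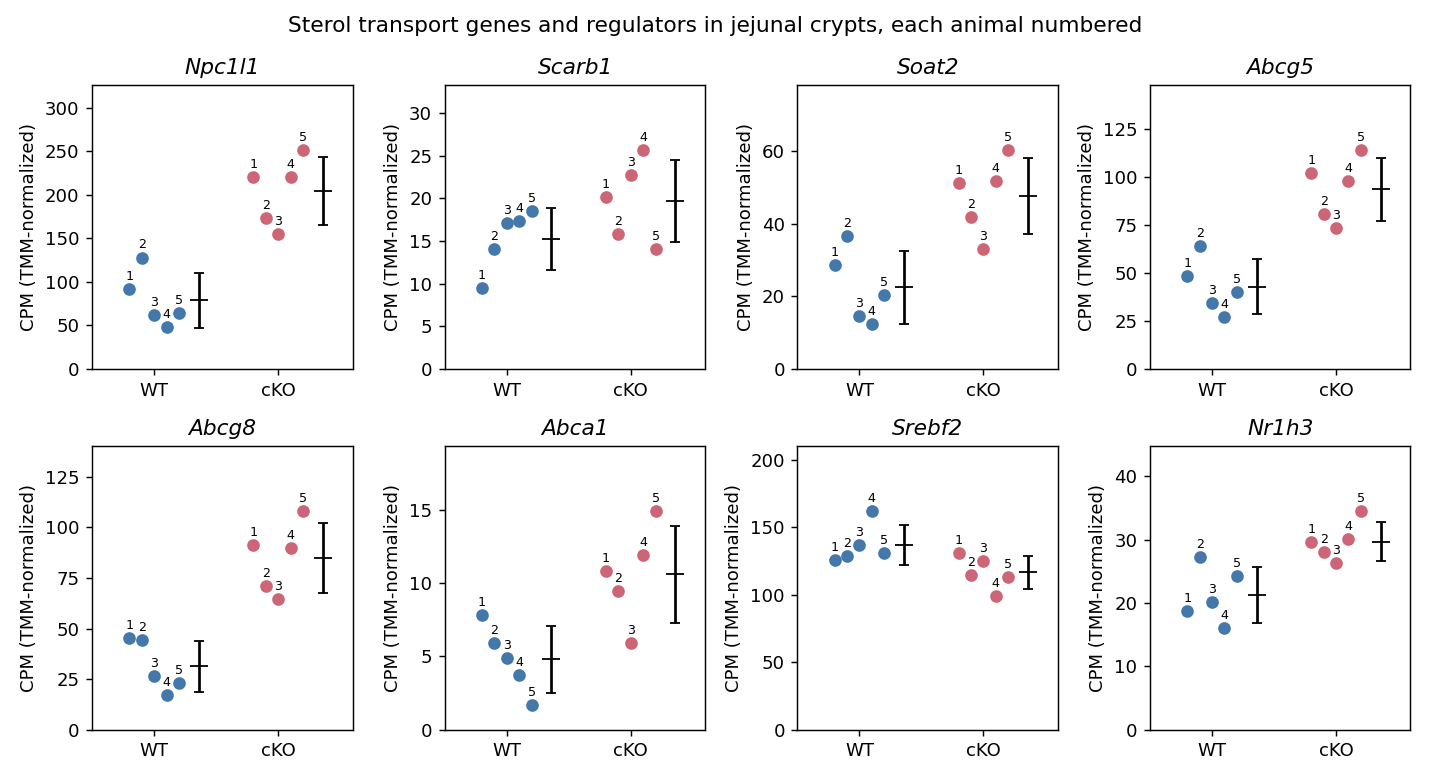
Normalized level (CPM) of the 8 sterol genes in 5 WT and 5 cKO jejunal crypt libraries; points are animals, numbered by replicate, and the black bars give the mean ± SD. Npc1l1, Abcg5 and Abcg8 separate the genotypes completely, Soat2, Abca1, Nr1h3 and Srebf2 overlap in part, and Scarb1 overlaps more broadly.

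Npc1l1, the apical cholesterol importer (chromosome 11, 6211013 to 6230143, minus strand), rose in cKO crypts. It was at 92.2, 128, 61.7, 48.4 and 63.7 CPM in WT replicates 1 to 5 and at 221, 173, 155, 221 and 251 CPM in cKO replicates 1 to 5. The groups did not overlap, with WT replicate 2 nearest to cKO. Means were 78.8 ± 31.8 and 204 ± 39.0 CPM (SD, n = 5 each), a 2.59-fold rise with a log2 fold change of 1.37 ± 0.26 (SE, adjusted p = 0.00518, edgeR).

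Scarb1 encodes SR-BI, a lipoprotein receptor that also binds sterols at the enterocyte surface (chromosome 5, 125277087 to 125341094, minus strand). It was at 9.5, 14.0, 17.1, 17.3 and 18.5 CPM in WT and at 20.2, 15.8, 22.7, 25.6 and 14.0 CPM in cKO, in replicate order. 3 of 5 cKO libraries lay above the highest WT library and the other 2 lay inside the WT range. The log2 fold change of 0.36 ± 0.20 did not pass the test (adjusted p = 0.195, edgeR). Its order among the cKO libraries was unlike that of the importer, since cKO replicate 5 was lowest for Scarb1 and highest for Npc1l1.

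Soat2, which encodes the enterocyte and liver enzyme that esterifies cholesterol for lipoprotein assembly, rose in cKO (chromosome 15, 102150526 to 102163469, plus strand). Its levels were 28.5, 36.6, 14.6, 12.4 and 20.4 CPM in WT and 51.1, 41.8, 32.9, 51.7 and 60.1 CPM in cKO. 4 of 5 cKO libraries exceeded every WT library, and cKO replicate 3 fell below WT replicate 2. The log2 fold change was 1.08 ± 0.30 (adjusted p = 0.0248, edgeR), 2.11-fold. The call did not hold without WT replicate 3 (0.96), WT replicate 5 (1.05), cKO replicate 1 (1.05), cKO replicate 4 (1.05) or cKO replicate 5 (0.97), nor without WT replicates 3 and 4 together (0.74), a choice made after seeing the data. With no filter on low counts Soat2 (1.07, adjusted p = 0.0758, edgeR) and Abca1 were not called, which left 4 of the 6 rises.

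Both subunits of the apical sterol exporter rose in cKO crypts. Abcg5 (chromosome 17, 84658234 to 84683011, minus strand) was at 48.3, 64.3, 34.2, 27.2 and 40.3 CPM in WT and at 102, 81.0, 73.6, 98.3 and 114 CPM in cKO. Abcg8 (chromosome 17, 84676302 to 84700333, plus strand) was at 45.1, 44.5, 26.4, 17.0 and 23.2 CPM in WT and at 91.3, 71.1, 64.4, 89.6 and 108 CPM in cKO. Neither gene overlapped between the genotypes, and for both WT replicate 4 was the lowest library and cKO replicate 5 the highest. The log2 fold change was 1.13 ± 0.22 for Abcg5 (2.19-fold, adjusted p = 0.00498) and 1.44 ± 0.28 for Abcg8 (2.72-fold, adjusted p = 0.00574, both edgeR). These coordinates are from the GENCODE annotation, in which the 2 genes overlap. Their RefSeq starts, used for the sequence above, lie 109 bases apart. The GENCODE exons of the 2 genes share 82 bases on opposite strands, 3.02% of the exonic bases of Abcg5 and 2.19% of those of Abcg8. Whether counting used strand was not stated, so reads in that stretch cannot be assigned with certainty.

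Abca1, which loads cholesterol onto apolipoprotein A-I at the basolateral side, was the least expressed of the 8 genes (chromosome 4, 53030787 to 53159895, minus strand). It was at 7.8, 5.92, 4.89, 3.72 and 1.67 CPM in WT and at 10.8, 9.48, 5.91, 11.9 and 14.9 CPM in cKO. The WT libraries spanned 4.66-fold, and cKO replicate 3 lay below WT replicate 1 and just below WT replicate 2. The log2 fold change was 1.14 ± 0.36 (2.21-fold, adjusted p = 0.0387, edgeR). The call was lost on leaving out any of WT replicates 3 (1.15) and 4 (1.06) or cKO replicates 1 (1.14), 2 (1.17), 4 (1.10) and 5 (0.98), and without WT replicates 3 and 4 together (1.05). It was also lost with no filter (1.15), with effective gene length as an offset (1.04), with library size only (1.00) and in limma on log2(TPM + 0.1) (0.97), so that 8 of 20 alternatives kept it.

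Nr1h3, the LXRα gene, rose modestly (chromosome 2, 91184061 to 91202834, minus strand). It was at 18.7, 27.2, 20.1, 16.0 and 24.2 CPM in WT and at 29.6, 28.0, 26.3, 30.1 and 34.5 CPM in cKO, and 4 of 5 cKO libraries exceeded every WT library. The rise was 39.8%, a log2 fold change of 0.48 ± 0.13 (adjusted p = 0.0177, edgeR), and the call was lost without cKO replicate 5 (0.42) and without WT replicates 3 and 4 (0.35).

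Srebf2, the gene of the sterol-regulated activator SREBP2, was at 126, 129, 137, 162 and 131 CPM in WT and at 131, 115, 125, 99.0 and 113 CPM in cKO (chromosome 15, 82147181 to 82205379, plus strand). The ranges overlapped through cKO replicate 1 only, and every other cKO library lay below every WT library. The highest library was in WT (replicate 4) and the lowest in cKO (replicate 4). The log2 fold change was -0.24 ± 0.09 (adjusted p = 0.0666, edgeR) and did not pass. It passed as lower when libraries were scaled by size only (-0.37) and in limma on log2(TPM + 1) and log2(TPM + 0.1) (-0.31 in both). TPM is the deposited abundance, scaled by transcript length and library total. Those scalings placed the median of all tested genes at -0.16, -0.10 and -0.13.

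The balance between functional partners was read as log2 ratios within a library, with a two-sided exact permutation test over all assignments of the 10 libraries and adjustment over the 5 ratios formed. Npc1l1 rose relative to Abcg5, from a log2 ratio of 0.85 ± 0.13 in WT to 1.12 ± 0.03 in cKO (SD), a difference of 0.27 without overlap (exact p = 0.00794, the smallest this design gives, adjusted 0.0198). This held for the Abcg5 subunit: Abcg8 had a fold change near that of Npc1l1 (1.44 and 1.37 on the log2 scale), and the ratio of those 2 was not tested. Nr1h3 rose relative to Nr1h2, the gene of the broadly expressed LXRβ, by 0.49, also without overlap (exact p = 0.00794, adjusted 0.0198).

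Abcg8 rose relative to its partner Abcg5 by 0.34, from -0.49 ± 0.27 to -0.15 ± 0.05 (exact p = 0.0397, adjusted 0.0496), with the smaller spread in cKO. Leaving out WT replicates 3, 4 or 5 or any 1 cKO library put the adjusted p above the threshold, with differences from 0.26 to 0.37 in those fits. Soat2 rose relative to Soat1, the gene of the more widely expressed esterifying enzyme, by 1.25 (exact p = 0.0317, adjusted 0.0496), and leaving out any of those same libraries lost the call, with differences from 1.03 to 1.35 in those fits. Each omission leaves fewer assignments and so coarser exact p-values. Without any 1 cKO library, even Npc1l1 to Abcg5 went from an adjusted exact p of 0.0198 to 0.0397. A lost call therefore need not mark the animal left out. The Srebf2 to Srebf1 ratio differed by -0.15 and did not pass (exact p = 0.159, adjusted 0.159).

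The enterocyte markers moved with these genes, and the levels were therefore also expressed relative to the summed enterocyte markers of the same library, a comparison added after seeing the data. That sum itself was higher by 1.62 on the log2 scale in cKO, without overlap. Since no sterol gene changed by as much, all 8 differences were negative by construction, and they are given as a description. Abcg8 differed by -0.12 and Npc1l1 by -0.19, followed by Abcg5 (-0.46), Soat2 (-0.48) and Abca1 (-0.48). Nr1h3 (-1.13), Scarb1 (-1.27) and Srebf2 (-1.86) stood furthest below the sum. The sum is led by the most abundant markers, and single markers changed by 0.80 to 1.95, so that the sterol genes with the larger changes lay inside the range of single enterocyte markers.

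**Figure D2:**
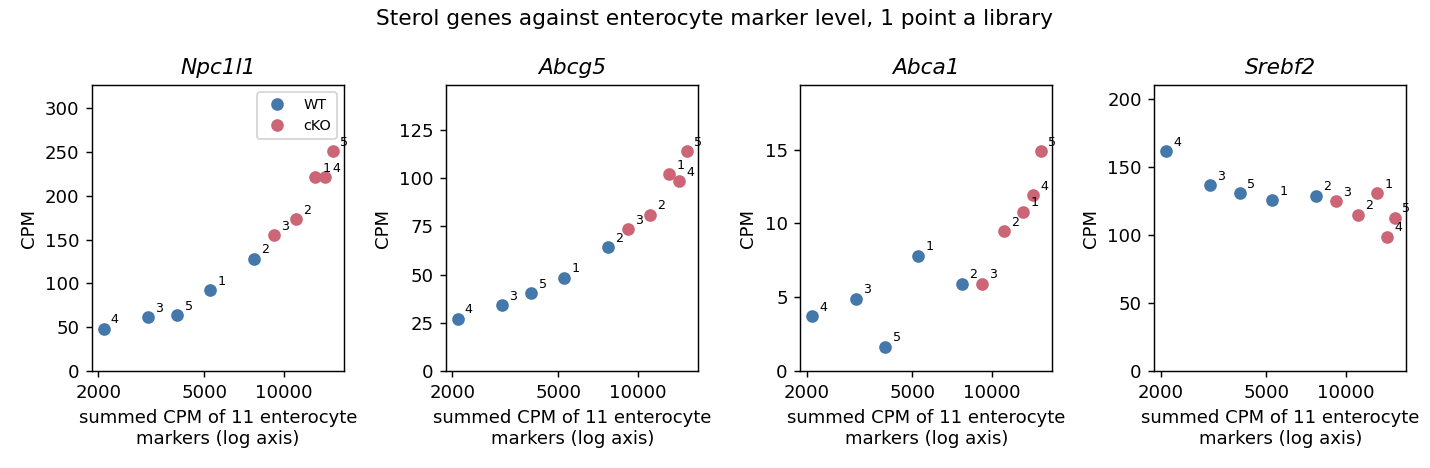
CPM of Npc1l1, Abcg5, Abca1 and Srebf2 against the summed CPM of 11 enterocyte markers (log axis); points are libraries, numbered by replicate, with WT in blue and cKO in red. Npc1l1 and Abcg5 climb with the marker sum from 2092.5 CPM in WT replicate 4 to 15247.7 CPM in cKO replicate 5, Abca1 does so with more scatter, and Srebf2 does not climb.

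Variation within a genotype was compared through each library's deviation from its genotype mean in log2 CPM, over 10 libraries, with adjustment over the 4 pairs of genes computed, with exact permutation of libraries within genotypes. Npc1l1 moved with Abcg5 (r = 0.98, exact p = 6.94e-05, adjusted 0.000139, rho = 0.99, exact p = 6.94e-05, adjusted 0.000139, where this p is the smallest possible). Abcg5 moved with Abcg8 (r = 0.92, exact p = 0.00181, adjusted 0.00241, rho = 0.92, exact p = 0.00257, adjusted 0.00257). Npc1l1 moved with the enterocyte brush border gene Vil1 (r = 0.93, exact p = 6.94e-05, adjusted 0.000139, rho = 0.92, exact p = 6.94e-05, adjusted 0.000139). Without WT replicates 3 and 4, the libraries farthest from the median, r was 0.98, 0.87 and 0.90 in that order. Npc1l1, Abcg5 and Abcg8 thus varied together also among animals of 1 genotype.

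As a description, Soat2 had r = 0.98 with Abcg5 and 0.97 with Npc1l1, whereas Srebf2 had r = -0.58 with Abcg5. Scarb1 had r = -0.48 with Npc1l1, -0.45 with Abcg5 and -0.62 with Abcg8.

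Over 10471 genes with a mean of at least 5 CPM, the brush border myosin gene Myo1a (r = 0.987) and Gnpda1 (0.986) were among the 3 genes whose deviations were most like those of Npc1l1. Those most like Abcg5 were Mpp1 (0.992), the amino acid transporter gene Slc7a7 (0.99) and Tmem106a (0.988). Srebf2 was closest to Lss (0.964) and Sqle (0.946), which encode consecutive enzymes of sterol synthesis, and to Dhx16 (0.945). Abca1 was closest to Rac2 (0.939), Jak2 (0.938) and Strada (0.93), with lower values than the best matches of Npc1l1 or Abcg5. These correlations over 10 libraries carry no test, and how far each follows the enterocyte differences described above was not tested.

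Per-length levels were compared with the deposited TPM. In WT crypts the order of mean TPM was Srebf2 (42.8), Abcg5 (25.7), Npc1l1 (23.2), Nr1h3 (17.5), Soat2 (13.7), Abcg8 (13.4), Scarb1 (8.16) and Abca1 (0.756). From Abcg5 down to Scarb1 each neighbouring pair overlapped in range, while Srebf2 stood above and Abca1 below all others. In cKO crypts the order of mean TPM was Npc1l1 (56.6), Abcg5 (51.6), Srebf2 (34.3), Abcg8 (33.8), Soat2 (27.2), Nr1h3 (23.6), Scarb1 (9.95) and Abca1 (1.44). Npc1l1 and Abcg5 overlapped in range with each other but not with Srebf2, and Scarb1 and Abca1 overlapped with no neighbour. Srebf2 thus had the highest mean TPM in WT, and stood behind Npc1l1 and Abcg5 in cKO.

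**Figure D3:**
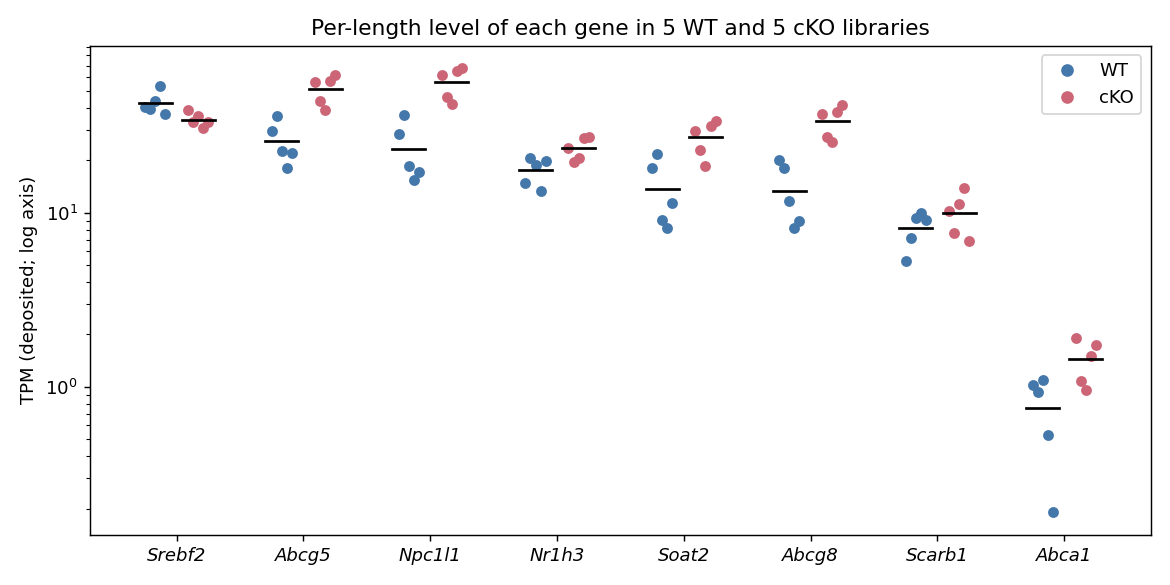
Deposited TPM of each gene on a log axis, in 5 WT (blue) and 5 cKO (red) libraries, with points for libraries and black bars for means, ordered by WT mean. Srebf2 leads in WT at 42.8 TPM, whereas Npc1l1 at 56.6 and Abcg5 at 51.6 TPM lead in cKO, and Abca1 is lowest in both.

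Around these 8 genes, 10 lists of other sterol genes held 88 distinct genes, of which 84 were tested, 28 were higher and 3 lower in cKO. Beside these and the list counts below stand the shares over all tested genes, 15.6% higher and 12.7% lower. Each cKO library lay above each WT library in 12.0% of all tested genes, and below in 7.63%. Genes below that are named to complete a count, rather than for the size of their change, were chosen after their values were seen. The same enterocyte marker rise accompanied each list, and its part was not tested.

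Of the 7 genes for NPC1L1 trafficking, which recycle the importer between endosomes and the apical membrane, 4 rose and 1 fell, and the list median was 0.30 on the log2 scale. The endocytic adaptor gene Numb went from 59.0 ± 3.90 to 80.5 ± 7.68 CPM (SD, n = 5; 0.45 ± 0.08, adjusted p = 0.00199, edgeR), and the recycling endosome GTPase gene Rab11a rose by 0.35 ± 0.08 (adjusted p = 0.00755, edgeR). Myo5b (0.33) and Cdc42 (0.29) completed the rises, all without overlap, although Cdc42 was not called without WT replicates 3 and 4 (0.23). The lipid raft gene Flot2 fell by 0.40 on the log2 scale (adjusted p = 0.0114, edgeR), a call that was not made without WT replicates 3 and 4 (-0.33). On the TPM scale Numb (0.25 with a pseudocount of 0.1), Rab11a (0.20) and Myo5b (0.23) kept their sign and did not pass, which left 1 of the 4 rises.

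Of 7 uptake receptor genes for lipoproteins and lipids, 2 rose, none fell in edgeR with 1 lower at an unadjusted p under 0.05 and 1 in DESeq2, and the median was -0.26. Cd36, a fatty acid and lipoprotein scavenger receptor, went from 6.97 ± 4.85 to 34.1 ± 20.5 CPM, a log2 fold change of 2.29 ± 0.59 (adjusted p = 0.02, edgeR) that did not pass without cKO replicate 5 (1.95). Lrp1, a large endocytic receptor gene, rose by 0.45 ± 0.13 (adjusted p = 0.0238, edgeR), a call lost without WT replicate 4 (0.42), cKO replicate 4 (0.40) or cKO replicate 5 (0.42). Without cKO replicate 5 neither was called.

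Inside the cell, 6 of 15 genes of intracellular sterol transport rose, with a median of 0.05. Lipa, the lysosomal acid lipase that frees cholesterol from its esters, showed the largest change of this list, from 14.9 ± 4.13 to 48.0 ± 7.79 CPM (1.69 ± 0.19, adjusted p = 0.000587, edgeR). Gramd1b, which encodes an Aster protein that moves plasma membrane cholesterol to the endoplasmic reticulum, rose by 1.20 ± 0.28 (adjusted p = 0.0126, edgeR) and did not pass without WT replicates 3 and 4 (0.91). Gramd1c (1.00), Scp2 (0.99), Stard4 (0.32) and Osbp (0.18) also rose, the last losing its call without WT replicates 1 (0.18) or 4 (0.18) or cKO replicates 1 (0.17) or 5 (0.16), and Npc1 (-0.03) and Npc2 (0.05), which empty the lysosome of cholesterol, did not pass. No member was called lower by edgeR or DESeq2, and 1 was lower at an unadjusted p under 0.05.

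Esterification and lipoprotein export had the highest list median among those with more than 1 tested gene, 1.36, with 5 of 7 genes higher. Apob (1.83), the structural protein of chylomicrons, Mttp (1.36), which lipidates it, and Sar1b (0.69), which drives chylomicron exit from the endoplasmic reticulum, rose without overlap. Apoa4 went from 600.0 ± 377 to 2507.2 ± 1076 CPM (2.06 ± 0.53, adjusted p = 0.0198, edgeR), and the call was lost without cKO replicate 5 (1.89), which left 3 of the 5 rises. Apoa1 had 1.85 ± 0.53 (adjusted p = 0.0296, edgeR), but WT replicates spanned 8.96-fold and the call was lost without WT replicates 1, 3 or 5 or cKO replicates 1, 2, 4 or 5 (1.67 to 1.88). Soat1 had -0.11 ± 0.15 (adjusted p = 0.616) and was called lower in limma on log2(TPM + 1) (-0.48) and log2(TPM + 0.1) (-0.49) and in edgeR with effective gene length as an offset (-0.39). Without that offset, edgeR and DESeq2 called no gene of this list lower, nor was any lower at an unadjusted p under 0.05.

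**Figure D4:**
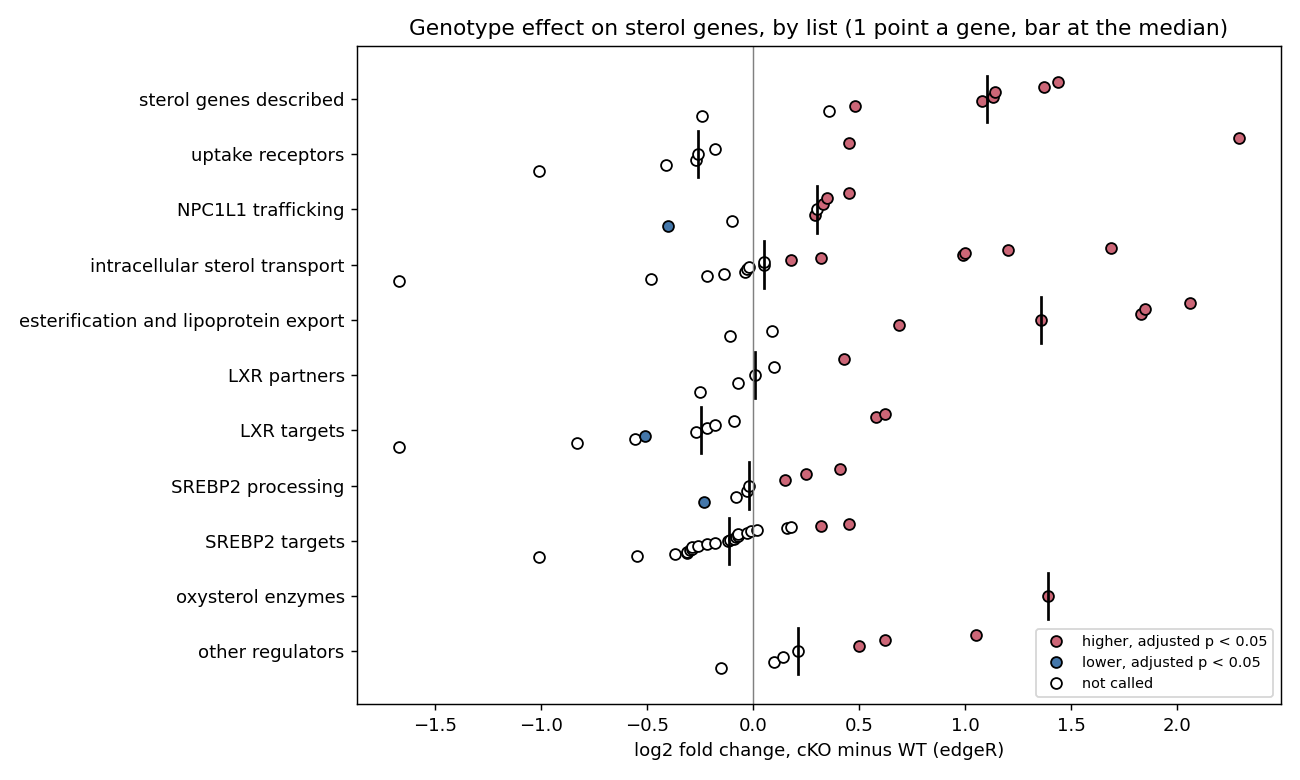
Log2 fold change (cKO minus WT, edgeR) of the 8 sterol genes and of 10 lists of related genes; each point is a gene, filled red or blue where called higher or lower and open where not called, and the black bar is the list median. The lipoprotein export list lies furthest right among lists with more than 1 tested gene (median 1.36), and the SREBP2 targets cluster slightly left of 0 (median -0.12).

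The LXR system was mixed. Of 5 tested LXR partners, only Rxra, the obligate dimer partner, rose (0.43 ± 0.07, adjusted p = 0.00188, edgeR, no overlap), and Nr1h2 had 0.01 ± 0.07. Of 10 other LXR targets, Smpdl3a (0.62 ± 0.12, adjusted p = 0.00299) and Lpcat3 (0.58 ± 0.10, adjusted p = 0.00258, both edgeR), a phospholipid remodelling enzyme, rose without overlap. Fasn, the fatty acid synthase gene, fell by 0.51 on the log2 scale (adjusted p = 0.0308, edgeR), and the call was lost without WT replicate 3 (-0.46), without cKO replicates 2 (-0.50), 3 (-0.48), 4 (-0.49) or 5 (-0.51), and without WT replicates 3 and 4 (-0.22). Of these targets, 3 were lower at an unadjusted p under 0.05, 2 in DESeq2 and 3 with library size only. The list median was -0.25, and Abcg1, the relative of Abcg5 that exports cholesterol in macrophages, was at 1.03 ± 0.311 and 0.882 ± 0.385 CPM (-0.22 ± 0.34, adjusted p = 0.649, edgeR).

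Among the 24 SREBP2 targets, chiefly the enzymes of cholesterol synthesis, 19 had negative log2 fold changes with a median of -0.12. Only Sc5d, encoding a late enzyme of the pathway (0.45 ± 0.08, adjusted p = 0.00183) and the sterol carrier gene Stard4 (0.32 ± 0.08, adjusted p = 0.0125, both edgeR) were called, and both rose. No target was called lower by edgeR, with 4 lower at an unadjusted p under 0.05 and 2 in DESeq2, while scaling by library size only and both limma fits on TPM called 4 lower. Sqle, which encodes squalene epoxidase, had -0.55 (adjusted p = 0.065, edgeR). Stard4 was not called when scaled by library size only (0.19) or in limma on log2(TPM + 1) (0.12).

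Of the 7 genes that process SREBP2, 3 rose and 1 fell, by small amounts. Insig2, which retains SREBP in the endoplasmic reticulum, rose without overlap (0.41 ± 0.08, adjusted p = 0.00292, edgeR). Rnf139, which encodes a ubiquitin ligase of the endoplasmic reticulum, had 0.25 ± 0.07 (adjusted p = 0.0259, edgeR) and lost its call without WT replicate 3 (0.24) or cKO replicates 2 (0.24), 3 (0.21) or 5 (0.24). Scap, the SREBP escort gene, fell by 0.23 on the log2 scale (adjusted p = 0.029, edgeR), and this call was lost without WT replicates 3 (-0.20) or 4 (-0.20) and without cKO replicates 2 (-0.23), 3 (-0.23), 4 (-0.24) or 5 (-0.22).

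Of the 4 oxysterol enzymes, which make or break down ligands of LXR, only Cyp27a1 was tested, and it rose from 8.31 ± 2.24 to 21.8 ± 8.15 CPM without overlap (1.39 ± 0.28, adjusted p = 0.00583, edgeR). Of 7 other regulators of intestinal lipid genes, 3 rose. Hnf4g, an enterocyte nuclear receptor gene, went from 99.4 ± 17.2 to 206 ± 40.4 CPM (1.05 ± 0.14, adjusted p = 0.000926, edgeR), while its relative Hnf4a had -0.15 and did not pass. The bile acid receptor gene Nr1h4 had 0.62 ± 0.19 (adjusted p = 0.0336, edgeR) and lost its call without WT replicates 1 (0.62), 3 (0.54) or 4 (0.50) or cKO replicates 1 (0.55) or 5 (0.56). Ppara, a fatty acid receptor gene, had 0.50 and lost its call without WT replicate 4 (0.50), cKO replicate 4 (0.47) or cKO replicate 5 (0.38). Without WT replicates 3 and 4, 1 of the 3 remained called.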

How the data were processed

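Total RNA from jejunal crypts was sequenced as polyA libraries (KAPA mRNA HyperPrep, RNeasy). The authors aligned reads with STAR and quantified genes with RSEM against GRCm38 within nf-core/rnaseq, and deposited expected counts, which are estimated and need not be whole, and TPM. The strand setting was not stated in the sources used here. After rounding, these expected counts were tested with edgeR 4.0.16 (quasi-likelihood, robust, TMM, minimum count 10, minimum total 15, R 4.3.3), with Benjamini-Hochberg adjustment over 14719 genes at 0.05. CPM were computed on TMM-normalized library sizes, and ratios and deviations used log2(CPM + 0.5). SE was the log2 fold change divided by the root of F. 115 rows without a symbol (0.0193% of counts) were kept under their gene identifiers.

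DESeq2 1.42.0, limma 3.58.1 on log2 TPM, other scalings, filters and omitted animals were alternatives. The fits were tested on simulated data. Replicates were separate animals. Genes named were the 8 sterol genes, Arid3a, up to 2 called genes per direction from each list, 4 relatives (Soat1, Nr1h2, Srebf1, Abcg1) and 3 best matches of Npc1l1, Abcg5, Abca1 and Srebf2. Results for some genes of these lists are not reported here. The genes and lists were chosen with earlier results of these data known. Enterocyte (11 genes), stem and cycling (6), Paneth (4), goblet (6), enteroendocrine (6), tuft (4), myeloid (9), lymphocyte (5), stromal (6) and endothelial (4) markers were summed as CPM.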

Additional observations from a re-analysis of the deposited data

Results flagged for a closer look

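In groups of 5 animals, the gap of the highest or lowest library to its nearest neighbour was compared with Dixon's critical value in 68 groups, and 3 exceeded it, where chance gives about 1 in 20. Numb in WT replicate 1 was at 65.9 CPM, above 56.4 to 58.2 CPM in the other WT libraries. Rab11a in cKO replicate 4 was at 78.3 CPM, below 84.1 to 85.9 CPM in the others. Hnf4g in cKO replicate 5 was at 276 CPM, above 178 to 202 CPM in the others. None of the 8 sterol genes stood out in this way.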

How the results depend on the processing

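Npc1l1, Abcg5 and Abcg8 kept their call in each of 20 alternatives. The number of genes called over the transcriptome, 4167, was 2143 without WT replicates 3 and 4, a choice made after seeing the data, and 3007 to 4684 on leaving out 1 animal at a time. Of the sterol genes, 6 were called higher, 3 without WT replicates 3 and 4, and 3 to 6 on leaving out 1 animal, with 3 without cKO replicate 5. The number called lower was 1 (Srebf2) with library size only, with limma on log2(TPM + 0.1) and with limma on log2(TPM + 1). The Abcg8 to Abcg5 difference was 0.37 from TPM (adjusted p = 0.0595) and 0.26 to 0.44 on leaving out 1 animal, and that of Soat2 to Soat1 was 1.03 to 1.53; neither passed in 8 of these 10 omissions. Among relatives not called, Soat1 had 0.07 and Srebf1 0.02 without WT replicates 3 and 4. Nr1h2 had -0.12 with library size only, -0.09 in both limma fits, -0.02 without WT replicates 3 and 4, and -0.03 to 0.05 on leaving out 1 animal. In lists with no gene called lower, 1 gene became lower in single omissions: SREBP2 targets without WT replicate 1 or cKO replicate 1, uptake receptors without cKO replicate 1, intracellular transport without cKO replicate 4 and LXR partners without WT replicate 2. SREBP2 processing had 1 gene higher, from 3, without WT replicate 3 or cKO replicates 2, 3 or 5. The cause of these changes was not tested.

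Replicate numbers did not pair the animals (same-number correlations -0.16, -0.04, 0.13, -0.14 and -0.15, with 0 of 10 libraries closest to their own number). With a replicate block, 3052 genes and 5 sterol genes were called higher or lower, and Abca1 was not (1.19, adjusted p = 0.125). Of 1424 alternative values, which included counts of genes called, 1188 were classed as unchanged. For a fold change or ratio this meant the same direction and side of the threshold. For a count it allowed some shift: 4 sterol genes called higher with no filter, in place of 6, still fell in this class. Counts limit Abca1 most, with 46 in WT replicate 5.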
